A study of Mus musculus with 18 samples.

Results

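The comparison described here sets macrophages labelled Smad1 knockout and given TGF-β1 against macrophages labelled floxed and given the same ligand. Its members are the libraries that the labels place in those groups, 3 against 3, which makes 6 of the 18 libraries of the series. Cells came from the tibial marrow of mice 2 to 3 months old. By the labels, knockout-labelled mice carried Smad1 fl/fl together with LyzM-Cre (called MyS1KO there), in which Cre recombinase is made from the lysozyme M gene Lyz2, active in myeloid cells. Floxed-labelled mice are given as Smad1 fl/fl alone, so that by the labels both groups share the loxP-flanked Smad1 alleles. The level of Lyz2, given below, went against these genotypes. Marrow cells were grown in CSF-1, the growth factor of macrophages, kept without serum for about 16 h, and then given 10 ng/ml TGF-β1 for 4 h. The other 12 libraries hold cells of both labels left untreated or given 50 ng/ml BMP4, with 3 libraries in each group. Nothing in the labels ties each library to its own mouse or culture, so p-values measure only how these libraries spread, which may be technical.

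TGF-β1 binds a pair of serine/threonine kinase receptors that phosphorylate Smad2 and Smad3, while BMP receptors phosphorylate Smad1, Smad5 and Smad9, and either group joins Smad4 to enter the nucleus. In several cell types TGF-β also phosphorylates Smad1 and Smad5 for a short time. The Id genes, which encode inhibitors of basic helix-loop-helix transcription factors, and Smad6, an inhibitory Smad, are standard targets of the Smad1/5 branch, whereas Pmepa1 and Smad7, which damp signalling, are standard targets of TGF-β. The comparison asks which genes differ with the Smad1 genotype label while the TGF-β pathway is switched on.

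The targeted gene was measured first. Smad1 (chr8:79338395-79399518, minus strand, mm10) had 20.4, 23.6 and 19.4 CPM (read counts divided by the TMM-adjusted library size, on the usual CPM scale) in the knockout-labelled libraries and 26.3, 24.6 and 22.1 CPM in the floxed-labelled libraries. The groups overlapped, since the second knockout-labelled library lay above the third floxed-labelled library. The log2 difference, knockout-labelled minus floxed-labelled throughout, was -0.20 ± 0.08 (SE, n = 3 per group), with an edgeR Benjamini-Hochberg adjusted p of 0.278. The counts are per whole gene, and the labels do not say which exons the loxP sites flank, so this value is no test of the deleted part. Per the series' own design text, loss of the protein in the knockout macrophages was shown by western blot.

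Lyz2, the lysozyme gene that drives Cre here, did not follow the labels. Knockout-labelled libraries had 13400, 13900 and 13500 CPM, and floxed-labelled libraries had 37.6, 8110 and 8120 CPM. All 3 knockout-labelled libraries lay above every floxed-labelled one, and the first floxed-labelled library stood far below the other two. In LyzM-Cre mice Cre replaces the start of Lyz2, so that a copy with Cre makes no lysozyme, and a lower level would go with the knockout label. The edgeR log2 difference was 1.33 ± 1.34 (adjusted p = 0.75), and with the 3 floxed-labelled libraries numbered 1 left out of all treatments it was 0.75 (adjusted p = 1.72e-05). Groups are therefore named by their labels, and each direction below is a difference between labels. Lyz1, the neighbouring copy that shares sequence with Lyz2, had 5.07 to 6.85 CPM against 5.56 to 11.9 CPM, and the groups overlapped.

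The cells carried the markers of macrophages. All 16 macrophage markers passed the count filter and none was at 0. Cd14 was the 1 called lower in the knockout-labelled libraries, against 0.252% of all genes tested. Summed macrophage markers ran from 14200 to 16100 CPM in knockout-labelled libraries and from 14500 to 15600 CPM in floxed-labelled libraries. Summed monocyte markers ran from 559 to 761 CPM against 743 to 1070 CPM, and summed neutrophil markers from 393 to 484 CPM against 480 to 545 CPM. No member of those lists was called. A negative log2 difference was found for 9 of 10 tested monocyte markers (median -0.47) and 11 of 12 tested neutrophil markers (median -0.3). Over all genes tested 50.1% were negative and the median was 0.00. Of 7 endothelial markers, Cldn5 was the 1 at 0 in all 6 libraries, and none of the 4 tested was called. Summed endothelial markers ran from 46.6 to 77.5 CPM against 48.6 to 69.9 CPM. Most of this came from Vwf, with 44.0, 70.7 and 38.3 CPM against 62.1, 40.9 and 49.4 CPM. Total counts were 15153296, 18636282 and 19064269 in the knockout-labelled libraries and 18092617, 24639163 and 24095015 in the floxed-labelled libraries.

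Of 14684 genes tested, 57 were called at an edgeR adjusted p under 0.05, which is 0.388% of them, and 1837 (12.5%) had an unadjusted p under 0.05. Of the 57 genes, 20 were higher in the knockout-labelled libraries (0.136% of genes tested) and 37 were lower (0.252%). The fit took all 18 libraries as independent, although same-numbered libraries of a label deviated together across treatments, and with the 6 libraries alone edgeR called 19 genes (7 higher, 12 lower), of which 15 were among the 57. The changes were small. The absolute log2 difference of the called genes ran from 0.20 to 2.66, with a median of 0.39, and 9 of the higher and 8 of the lower genes differed by at least 1.5-fold. The 3 libraries of one label lay wholly above or below the 3 of the other for all 57 called genes, and for 19.2% of all genes tested. An adjusted p under 0.05 was held by 192 of 23631 genes with a value in the authors' deposited table, 72 higher and 120 lower, and 50 of the 57 genes were among them with the same sign.

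**Figure D1:**
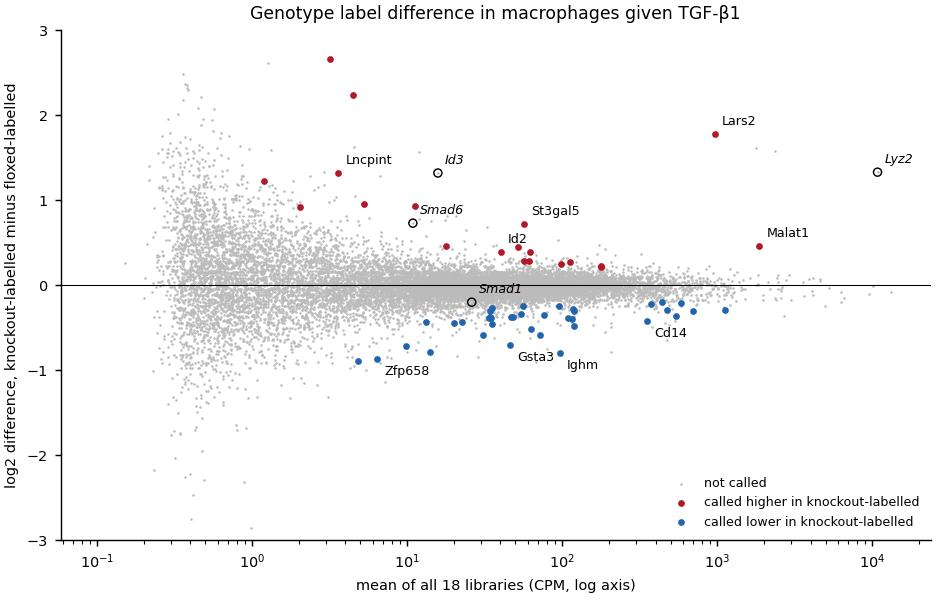
Log2 difference between knockout-labelled and floxed-labelled libraries given TGF-β1 (y axis) against the mean level of each of the 14684 genes over all 18 libraries in CPM (x axis, log scale). Red and blue points are the 20 genes called higher and the 37 called lower, and open circles mark 4 genes that were not called, Id3, Smad6, Smad1 and Lyz2; 11 genes that were not called lie beyond the y axis.

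Among the targets of the Smad1/5 branch, Id2 was higher in the knockout-labelled libraries, and the related Id3, Id1 and Smad6 did not pass the test. Id2 (chr12:25093799-25097140, minus strand) had 91.3, 87.0 and 84.1 CPM against 61.7, 70.5 and 68.2 CPM, so that every knockout-labelled library exceeded every floxed-labelled one. The log2 difference was 0.39 ± 0.06, with an edgeR adjusted p of 0.0186. Id3 (chr4:136143497-136145755, plus strand) had 50.1, 52.6 and 46.7 CPM against 9.90, 25.3 and 24.2 CPM. Its groups did not overlap either, and the first floxed-labelled library was below the other two. The log2 difference was 1.32 ± 0.34, with an edgeR adjusted p of 0.0994. Without that library the log2 difference of Id3 was 1.01 and that of Id2 was 0.33, with edgeR adjusted p-values of 0.287 and 0.107. Id1, the least abundant of these, had 2.34, 1.58 and 1.86 CPM against 0.556, 1.41 and 1.34 CPM, with no overlap (log2 0.77 ± 0.40, edgeR adjusted p = 0.449).

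Smad6 (chr9:63953076-64022059, minus strand) had 36.9, 34.6 and 39.3 CPM in knockout-labelled libraries against 18, 26.5 and 22 CPM in floxed-labelled libraries, again with no overlap. Its log2 difference was 0.73 ± 0.23 with an edgeR adjusted p of 0.17, and the authors' deposited table calls it with a log2 fold change of 0.73. Of the 12 tested members of the list of BMP and Smad1/5 targets, 1 was called higher and none lower, at a median log2 of 0.16 against 0.00 over all genes tested. Groups did not overlap for 5 members on the higher side, which were Id1, Id2, Id3, Smad6 and Runx2, and for 1 on the lower side, Bambi. Over all genes tested the share without overlap was 9.2% on the higher side and 10% on the lower side. Bambi encodes a pseudoreceptor that damps both branches and had 6.61, 5.33 and 5.91 CPM against 7.07, 7.39 and 6.74 CPM.

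The stretch before the RefSeq start site is shown for these genes and for Gsta3, the gene with the lowest adjusted p. It was searched on both strands for the GC-rich elements known for Smad1/5 binding, GGCGCC and GGAGCC, for the core of the Smad-binding element, CAGAC, and for the core of the antioxidant response element, TGACNNNGC. Each line gives 250 bases 5′ to 3′ on the gene's strand from the RefSeq table of GRCm38.p6, with every match to these motifs in capitals; no matches overlapped.
Id2 promoter: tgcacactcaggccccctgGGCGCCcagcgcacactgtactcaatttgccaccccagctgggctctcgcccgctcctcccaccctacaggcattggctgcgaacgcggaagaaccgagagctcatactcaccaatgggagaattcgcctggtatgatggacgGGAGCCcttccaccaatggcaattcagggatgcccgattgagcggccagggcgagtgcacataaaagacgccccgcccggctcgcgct
Id3 promoter: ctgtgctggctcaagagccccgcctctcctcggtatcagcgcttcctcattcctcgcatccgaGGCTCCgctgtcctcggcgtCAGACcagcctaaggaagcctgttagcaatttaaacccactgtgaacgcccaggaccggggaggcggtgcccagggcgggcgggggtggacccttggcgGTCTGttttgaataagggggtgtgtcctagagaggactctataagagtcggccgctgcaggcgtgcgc
Smad6 promoter: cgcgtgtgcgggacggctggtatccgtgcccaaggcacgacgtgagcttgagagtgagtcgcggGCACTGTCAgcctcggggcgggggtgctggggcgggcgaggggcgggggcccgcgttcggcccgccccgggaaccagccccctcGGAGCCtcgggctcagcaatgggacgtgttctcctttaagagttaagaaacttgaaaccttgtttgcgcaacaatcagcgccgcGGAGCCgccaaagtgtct
Gsta3 promoter: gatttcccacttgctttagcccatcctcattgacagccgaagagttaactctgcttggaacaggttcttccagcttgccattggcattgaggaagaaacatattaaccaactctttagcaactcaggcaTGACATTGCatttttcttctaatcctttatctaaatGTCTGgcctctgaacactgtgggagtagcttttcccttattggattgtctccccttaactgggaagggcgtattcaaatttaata
The windows are chr12:25096093-25096342 (minus strand) for Id2, chr4:136143572-136143821 (plus strand) for Id3, chr9:64022060-64022309 (minus strand) for Smad6 and chr1:21240335-21240584 (plus strand) for Gsta3. The RefSeq start lies 1048 bases inside the deposited gene for Id2 and 325 bases inside it for Id3, so those windows fall within the gene coordinates given above. The Id2 window held 1 GGCGCC and 1 GGAGCC, at 231 and 88 bases before the start. The Id3 window held 1 GGAGCC and 2 CAGAC, the Smad6 window held 2 GGAGCC and 1 TGACNNNGC, and the Gsta3 window held 1 TGACNNNGC and 1 CAGAC. Among 32851 promoters of this length, 9.59% held GGCGCC, 26% held GGAGCC, 42.2% held CAGAC and 10.2% held TGACNNNGC. A match describes the letters of the window and is not a measured site.

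No gene on the list of TGF-β and Smad3 targets was called. The list does not hold every gene whose level differed with the ligand. Of called genes off the list, Kif21b had floxed-labelled means of 96.3 CPM untreated and 296 CPM with TGF-β1. Cd14 had floxed-labelled means of 481 and 224 CPM. Smad7, the inhibitory Smad induced by TGF-β, had 59.6, 52.6 and 50.5 CPM against 45.7, 53.3 and 41.9 CPM, with overlapping groups (log2 0.21 ± 0.10, edgeR adjusted p = 0.387). Pmepa1, which encodes a membrane protein that sequesters receptor-activated Smads, had 194, 184 and 204 CPM against 196, 214 and 198 CPM (log2 -0.06 ± 0.07, edgeR adjusted p = 0.757). Of 25 tested TGF-β and Smad3 targets none was called by edgeR in either direction, 4 had an unadjusted p under 0.05, and the median log2 was 0.03. All genes tested had 0.388% called and 12.5% at an unadjusted p under 0.05. At so low a share, a list of 25 genes without a call says little. Among the signal transducers, Smad4, the shared partner, had 66.6, 72.5 and 68.9 CPM against 62.4, 64.9 and 60.8 CPM, without overlap (log2 0.14 ± 0.06, edgeR adjusted p = 0.281). Smad2 (log2 0.01), Smad3 (log2 -0.02) and Smad5 (log2 -0.06) overlapped between labels, and Smad9 did not reach the count filter.

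**Figure D2:**
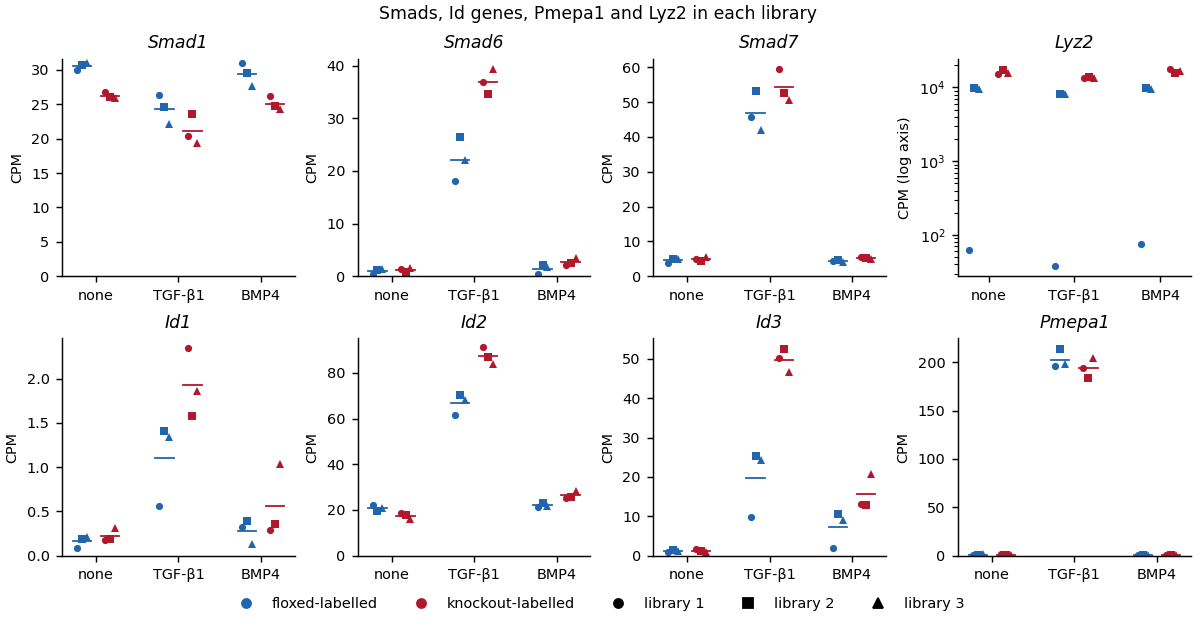
Level of 8 genes in CPM (y axes start at 0, except Lyz2 on a log axis) in each library by treatment (x axis), with floxed-labelled libraries in blue, knockout-labelled libraries in red, the library number as the symbol and the group mean as a bar (none for Lyz2). Under TGF-β1 the labels do not overlap for Id1, Id2, Id3, Smad6 and Lyz2, and they overlap for Smad1, Smad7 and Pmepa1.

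Gsta3 had the lowest adjusted p of all genes. It encodes an alpha-class glutathione transferase, an enzyme that couples glutathione to reactive compounds. Knockout-labelled libraries had 38.1, 39.2 and 43.5 CPM and floxed-labelled libraries had 70.4, 58.5 and 68.1 CPM, with a wide gap between the labels. The log2 difference was -0.70 ± 0.10 (edgeR adjusted p = 0.0114), which is 1.63-fold higher in the floxed-labelled libraries. Of 15 tested glutathione transferase genes, a list added after values were seen, Gsta3 was the 1 called, and the median log2 was -0.11. The share of all genes tested that was called lower was 0.252%.

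Several receptors and sensors of the innate immune system were lower in the knockout-labelled libraries. Fcgr2b, the inhibitory Fc receptor for IgG, had 62.6, 68.4 and 58.9 CPM against 104, 91.8 and 89.3 CPM (log2 -0.59 ± 0.12, edgeR adjusted p = 0.0421). Cd14, the lipopolysaccharide co-receptor, had 181, 155 and 166 CPM against 208, 239 and 226 CPM (log2 -0.42 ± 0.08, edgeR adjusted p = 0.0306). For both genes every knockout-labelled library was below every floxed-labelled one. Clec4n, which encodes the fungal pattern receptor dectin-2, had 57.9, 52.4 and 60.5 CPM against 70.8, 78.3 and 89.1 CPM. Cd33, a receptor of the family that binds sialic acid, had 22.7, 29.7 and 20.1 CPM against 36.7, 33.4 and 39.2 CPM. Both were called lower, at log2 -0.48 and -0.59, and neither overlapped between labels.

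Ms4a4a, a tetraspan membrane protein of macrophages, had 17.2, 17.9 and 18.9 CPM against 25.3, 23.2 and 25.8 CPM. Nlrc4, the adaptor of the inflammasome that senses bacterial flagellin, had 31.2, 42.1 and 38.4 CPM against 48.1, 49.8 and 48.0 CPM. Both were called lower, with log2 differences of -0.46 and -0.38 and an edgeR adjusted p of 0.0421 each. The calls on lists of related genes were these genes themselves. The 4 Fc gamma receptor genes held 1 call, the 20 tested C-type lectin receptor genes 1 and the 10 tested Ms4a genes 1, all lower. These lists were added after values were seen, and their calls were Fcgr2b, Clec4n and Ms4a4a. Over all genes tested 0.252% were called lower. Among 31 tested phagocytic and scavenger receptors 2 were called lower and none higher, with a median log2 of 0.02, and among 23 pro-inflammatory cytokines and receptors 1 was called lower, with a median of -0.07.

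Ighm, the constant region of the immunoglobulin M heavy chain, had 21.3, 26.1 and 24.0 CPM against 39.4, 46.8 and 38.7 CPM, the labels lying far apart (log2 -0.80 ± 0.13, edgeR adjusted p = 0.0186). It was the 1 gene called among 3 tested lymphoid markers, while 0.252% of all genes tested were called lower. Summed over the list of lymphoid markers, the level was 22.8 to 26.9 CPM against 40.0 to 48.5 CPM, most of it from Ighm itself. Whether B-lineage cells or RNA have a part in this difference was not tested. In these bulk libraries, fewer cells of a type and less RNA per cell cannot be told apart.

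**Figure D3:**
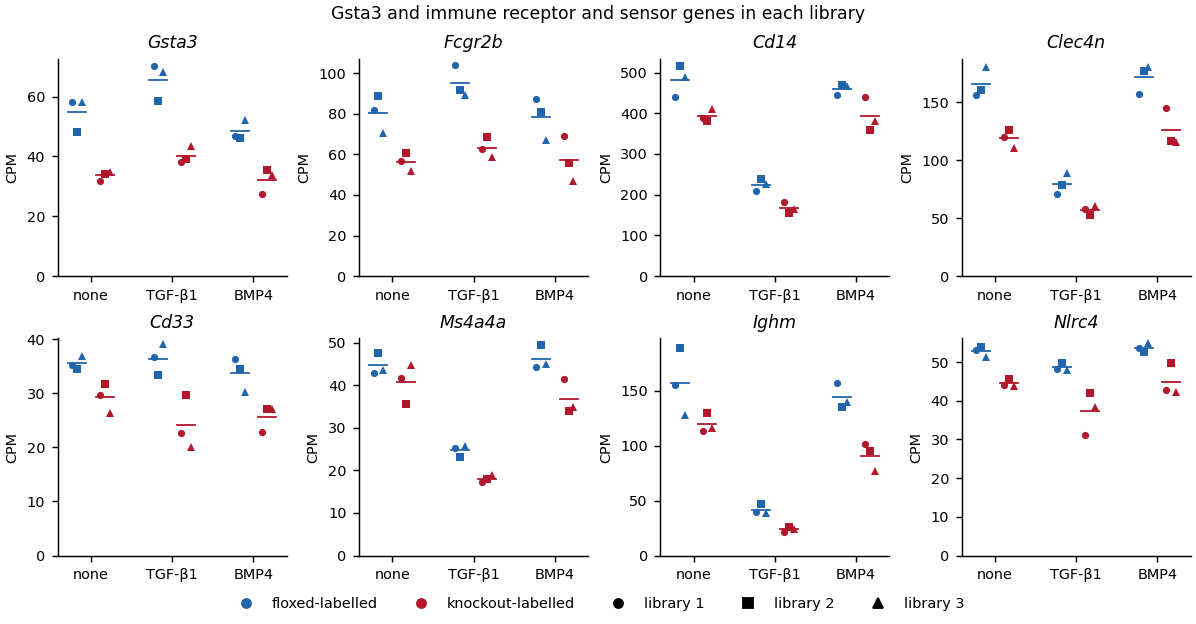
Level of Gsta3, 6 immune receptor or sensor genes and Ighm in CPM (y axes start at 0) in each library by treatment (x axis), with floxed-labelled libraries in blue, knockout-labelled in red, the library number as the symbol and the group mean as a bar. Under TGF-β1 each of the 8 genes is lower in all 3 knockout-labelled libraries than in any floxed-labelled one.

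Genes of the matrix and its turnover moved in both directions. Col4a2, a chain of the collagen of basement membranes, had 16.1, 12.3 and 14.2 CPM in knockout-labelled libraries against 9.18, 5.77 and 7.49 CPM in floxed-labelled libraries. It was higher by a log2 of 0.93 ± 0.19 (edgeR adjusted p = 0.0421). Against 0.136% called higher of all genes tested, Col4a2 was the 1 called member of 22 tested matrix genes (median log2 -0.30). Its head-to-head neighbour Col4a1 had 7.68, 7.29 and 9.11 CPM against 5.90, 5.73 and 4.06 CPM, without overlap (log2 0.63, edgeR adjusted p = 0.177). Fn1, which encodes fibronectin, had 4.74, 2.88 and 4.63 CPM against 7.34, 11.2 and 5.27 CPM, on the lower side without overlap (log2 -0.97, edgeR adjusted p = 0.0982).

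Cst3, the secreted inhibitor of cysteine cathepsins, had 1020, 1080 and 1020 CPM against 1260, 1310 and 1250 CPM and was called lower (log2 -0.29 ± 0.06, edgeR adjusted p = 0.0425). Cst3 was the 1 called gene among 28 tested matrix proteases and inhibitors (median log2 -0.09), against 0.252% called lower of all genes tested. Plau, the urokinase plasminogen activator, had 189, 191 and 185 CPM against 281, 243 and 245 CPM. Its groups did not overlap, its log2 was -0.45 and its edgeR adjusted p was 0.0678, while the authors' deposited table gives an adjusted p of 1.54e-08. Over all genes tested the groups lay apart on the higher side for 9.2% and on the lower side for 10%. Col4a1, Fn1, Plau and Bambi were chosen after their values were seen.

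Cytoskeletal and signalling genes were among the calls as well. Tns1, which encodes tensin, a link between integrins and actin, had 29.8, 26.7 and 26.8 CPM against 39.1, 38.6 and 41.8 CPM (log2 -0.52, edgeR adjusted p = 0.0186). Eps8, a regulator of actin capping and Rac, had 3.87, 6.20 and 3.89 CPM against 7.57, 7.80 and 8.79 CPM (log2 -0.79, edgeR adjusted p = 0.0461). Rin2, a Rab5 exchange factor, was lower by a log2 of -0.40. On the higher side, St3gal5, the synthase of the ganglioside GM3, had 69.0, 54.3 and 67.8 CPM against 29.2, 43.9 and 42.1 CPM (log2 0.72, edgeR adjusted p = 0.0421). None of these 4 overlapped between labels.

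Smaller rises were called for Braf, the kinase upstream of MEK (log2 0.28), Kif21b, a kinesin (log2 0.22), Myo9a, an unconventional myosin (log2 0.28), and Jade2, a subunit of histone acetyltransferase complexes (log2 0.45). Capn5, a calpain, had 89.6, 88.1 and 89.6 CPM against 59.9, 67.7 and 75.8 CPM (log2 0.39), and the corepressor Tle6 had 17.2, 17.9 and 17.8 CPM against 12.6, 12.8 and 13 CPM (log2 0.46). The zinc-finger gene Zfp658 fell, with 3.81, 4.13 and 3.36 CPM against 6.18, 7.72 and 6.74 CPM (log2 -0.87, edgeR adjusted p = 0.0186). Pgk1, a glycolytic enzyme, was called at the smallest difference, 410, 413 and 409 CPM against 479, 481 and 455 CPM (log2 -0.20). It was the 1 called gene of 33 in the hypoxia and glycolysis list, whose median log2 was -0.10. Among all genes tested 0.252% were called lower.

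A further group of lower genes encode parts of the ribosome, the respiratory chain and other basic machinery. Of 84 tested ribosomal protein genes 3 were called, none higher, among them Rps9 (log2 -0.30) and Rps3a1 (log2 -0.21), and 74 of the 84 had a negative log2, with a median of -0.12. Over all genes tested 0.252% were called lower, 50.1% had a negative log2 and the median was 0.00. Of 83 nuclear genes for respiratory chain subunits 80 were negative, at a median of -0.14, and 1 was called, Ndufa12 of complex I (log2 -0.39). Of the 13 protein-coding genes of the mitochondrial genome 12 were negative, at a median of -0.26, and mt-Nd4 was called at log2 -0.29. It was the 1 call among all 25 tested genes of that genome. These lists were added after values were seen. Further calls of the kind were Snrpf, a core protein of spliceosomal particles (log2 -0.72), Polr2f, a subunit shared by the RNA polymerases (log2 -0.45), Mrpl9 of the mitochondrial ribosome (log2 -0.27), the ubiquitin-like proteins Nedd8 and Ubl5 (log2 -0.24 and -0.35), the prolyl isomerase Ppib (log2 -0.34), the signal recognition particle protein Srp9 (log2 -0.25) and the replication-dependent histone gene Hist1h4i (log2 -0.89).

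The difference between the labels followed gene length. Among protein-coding genes the median log2 was -0.15 for genes of at most 1 kb, -0.10 from 1 to 2 kb, -0.04 from 2 to 4 kb, 0.01 from 4 to 8 kb and 0.05 above 8 kb. Genes called lower made up 2.01% of the shortest class and 0.146% of the longest, and genes called higher made up 0% and 0.341%. The median length of the called protein-coding genes was 10760 bases for those higher and 2383 bases for those lower, against 4370 bases for all tested. Spearman's rho between length and log2 difference across the 14684 genes was 0.18, and it was 0.19 in untreated libraries and 0.15 under BMP4, as a description across genes, which are not independent.

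Among the 20 genes called higher, 7 were not protein-coding, against 1 of the 37 called lower and 2649 (18%) of all genes tested. Malat1, an abundant nuclear long noncoding RNA, had 2590, 2200 and 1940 CPM against 1540, 1660 and 1700 CPM (log2 0.46, edgeR adjusted p = 0.0421). Lncpint, a long noncoding RNA induced by p53, had 6.94, 6.15 and 5.27 CPM against 1.78, 2.07 and 3.39 CPM (log2 1.32, edgeR adjusted p = 0.0186). Both lay wholly higher in the knockout-labelled libraries. Genes of biotype TEC, which the annotation keeps for unproven transcripts, held 3 calls of 578 tested, all higher, with a median log2 of 0.32, in a list added after values were seen. Over all genes tested 0.136% were called higher and the median was 0.00. The median of the TEC genes was 0.55 in untreated cells and -0.09 under BMP4.

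Lars2, the mitochondrial leucyl-tRNA synthetase, had the largest difference of the called protein-coding genes, with 1640, 1560 and 1670 CPM against 406, 537 and 476 CPM (log2 1.78 ± 0.38, edgeR adjusted p = 0.0468). It passed the threshold in 7 of 19 alternative analyses, where its log2 difference ran from 0.29 to 2.11. The ribosomal RNA gene CT010467.1 followed the same order, with 3750, 3790 and 3990 CPM against 1100, 1620 and 1120 CPM. It was not called in the main edgeR fit. The authors' deposited table gives it a log2 fold change of 1.58 and an adjusted p of 1.27e-12. Gm15564, a gene annotated as antisense, also followed that order, with 9.88, 7.18 and 8.84 CPM against 1.39, 2.07 and 1.92 CPM (log2 2.24). The scaRNA gene Gm22009 had 7.54, 8.65 and 1.12 CPM against 1.06, 0.830 and 0.837 CPM (log2 2.66), so that 1 knockout-labelled library lay close to the floxed-labelled ones. Whether the counting used strand is not given in the sources used here, so reads of Gm15564 and of genes on the other strand cannot be told apart. Among the knockout-labelled libraries given BMP4, Lars2 had 2870, 897 and 490 CPM and CT010467.1 had 6360, 1870 and 985 CPM. Why these levels varied together was not tested.

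Under TGF-β1, measures of library make-up differed between the labels. TEC genes took 0.105% to 0.118% of counts in the knockout-labelled libraries and 0.0914% to 0.0989% in the floxed-labelled ones. The ribosomal RNA gene took 0.371% to 0.393% against 0.109% to 0.159%. Ribosomal protein genes took 2.93% to 3.01% against 3.20% to 3.35%, and mitochondrial genes 1.02% to 1.04% against 1.14% to 1.20%. None of these shares overlapped between the labels under TGF-β1. In untreated libraries the TEC share was 0.116% to 0.139% in knockout-labelled against 0.0942% to 0.101% in floxed-labelled libraries. The ribosomal RNA gene took 0.343% to 0.426% against 0.114% to 0.116% there, and ribosomal protein genes 2.7% to 2.96% against 3.22% to 3.31%. These untreated shares did not overlap either, while the mitochondrial share did (1.06% to 1.13% against 1.12% to 1.19%). Under BMP4 the TEC share was lower in the knockout-labelled libraries (0.0959% to 0.102% against 0.103% to 0.106%). The share of the ribosomal RNA gene overlapped there (0.1% to 0.628% against 0.0768% to 0.127%). Ribosomal protein and mitochondrial shares were again lower in the knockout-labelled libraries given BMP4, without overlap. With the TEC share as a covariate edgeR called 0 genes (687 at an unadjusted p under 0.05), and with the log2 share of the ribosomal RNA gene as a covariate it called 8, all lower, among them Ighm, Fcgr2b, Cd14, Clec4n, Rps9, mt-Rnr1 and mt-Rnr2. Both fits were chosen after seeing the data. Neither share overlapped between the labels under TGF-β1, so these fits cannot tell share and label apart, and calls can be lost for that reason alone. The part of RNA quality in the differences was not tested.

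**Figure D4:**
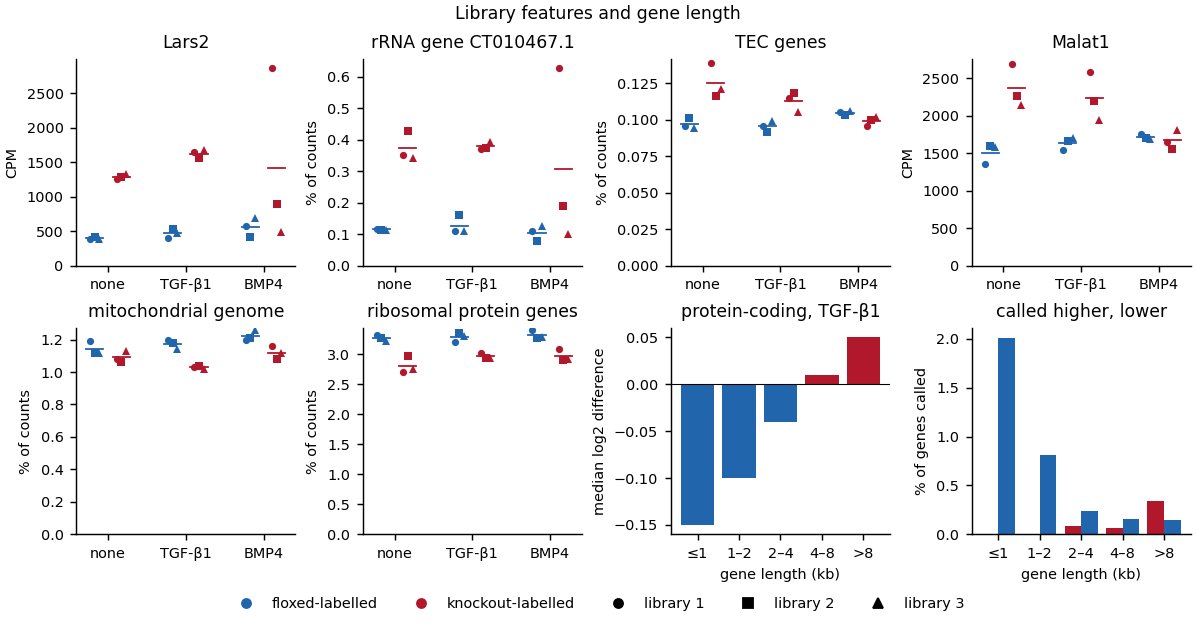
Lars2 and Malat1 in CPM and 4 classes of genes as a percentage of counts in each library by treatment (first 6 panels, floxed-labelled in blue, knockout-labelled in red, library number as the symbol, group mean as a bar), then the median log2 difference under TGF-β1 of protein-coding genes by length class, and the percentage of each class called higher (red) or lower (blue). Under TGF-β1 the labels do not overlap in any of the 6 library panels, and the median log2 goes from -0.15 in the shortest class to 0.05 in the longest.

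The lists of other processes held no calls beyond those named. CXC chemokines (9 tested, median log2 -0.22), CC and CX3C chemokines (10 tested, -0.16), chemokine receptors (15 tested, -0.18), interferon-stimulated genes (40 tested, -0.10), antigen presentation genes (22 tested, -0.14) and alternative activation genes (20 tested, 0.03) had no edgeR call, with 0 higher and 2 lower, 0 and 1, 1 and 2, 0 and 0, 1 and 6, and 0 and 1 at an unadjusted p under 0.05. Angiogenic growth factors (20 tested, 0.02), TGF-β and BMP receptors (11 tested, 0.02), TGF-β family ligands (10 tested, 0.04) and cell cycle genes (33 tested, -0.03) had none either, with 4, 2, 0 and 0 genes at an unadjusted p under 0.05. The remaining lists of processes and cell types held no call either, and their medians ran from -1.34 in 6 tested fibroblast markers to 0.09 in 4 sex-linked genes. Ccr2, the receptor that draws monocytes into tissue, had 452, 328 and 430 CPM against 466, 508 and 698 CPM (log2 -0.47, edgeR adjusted p = 0.256). Pf4, a platelet-type chemokine that macrophages also make, had 209, 184 and 212 CPM against 261, 249 and 256 CPM (log2 -0.34, edgeR adjusted p = 0.154). Apoe, the lipid carrier that is among the most abundant transcripts of these cells, had 5310, 5510 and 5520 CPM against 6740, 6690 and 5910 CPM (log2 -0.24, edgeR adjusted p = 0.118). The groups of all 3 genes lay apart on the lower side, as they did for 10% of all genes tested. Genes that start within 5 Mb of Smad1 held 1 edgeR call of 64 tested, higher, with 8 higher and 5 lower at an unadjusted p under 0.05. Those within 5 Mb of Lyz2 held none of 42, with 3 higher and 5 lower. Over all genes tested the shares were 0.388% called and 12.5% at an unadjusted p under 0.05.

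Of the 57 called genes 55 had the same sign in untreated cells and 52 under BMP4. The same share over all genes tested is not given here, so these counts are not read as particular to the called genes. In untreated cells 351 genes were called between the labels, 2.39% of those tested, and 29 of the 57 were among them. Under BMP4 4 genes were called, 0.0272%, and 2 of the 57 were among them, Gsta3 and Kif21b. These comparisons share no library with that under TGF-β1, but libraries of the same label and number deviated together across treatments, so the values stand side by side and are no independent repeat. Gsta3 differed by a log2 of -0.71 in untreated cells and of -0.59 under BMP4. Col4a2 differed by 1.12 and 1.03, and Fcgr2b by -0.51 and -0.45. Lncpint differed by 1.27 in untreated cells and by -0.08 under BMP4, and Malat1 by 0.65 and -0.04.

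Between TGF-β1 and no treatment, Id2 was the 1 gene that edgeR called for a change in the difference between labels. In untreated cells Id2 was at a mean of 17.4 CPM in knockout-labelled and 20.9 CPM in floxed-labelled libraries, a log2 of -0.27 ± 0.08 that was not called (edgeR adjusted p = 0.0648) and had the opposite sign to that under TGF-β1. The interaction was a log2 of 0.65 ± 0.10 with an edgeR adjusted p of 0.0432. This 1 call is 0.00681% of the genes tested, and 493 genes (3.36%) had an unadjusted p under 0.05. With a replicate block for label and number, which applies because same-numbered libraries of a label deviate together, Id2 was again the 1 gene called (log2 0.66, edgeR adjusted p = 0.0128). The interaction lost its call when any 1 of the 6 libraries given TGF-β1 was left out, at adjusted p-values of 0.0518 to 0.225, and when any of 4 of the 6 untreated libraries was left out, at 0.161 to 0.301. It was not called either with the block by number over all 18 libraries (edgeR adjusted p = 0.105), total count scaling (0.0801), either limma fit of the FPKM values (0.0633 with a pseudocount of 1 and 0.0705 with 0.1), the TEC share or the ribosomal RNA gene share as a covariate (0.101 and 0.0645), or without the 3 floxed-labelled libraries numbered 1 (1). The log2 change ran from 0.56 to 0.72 over these and the other alternatives. Between TGF-β1 and BMP4 the change for Id2 was 0.12 (edgeR adjusted p = 0.999). The Id3 difference was 0.15 in untreated cells, where its level was 1.22 and 1.11 CPM, and the interaction of 1.17 had an edgeR adjusted p of 1.

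Between TGF-β1 and BMP4 edgeR called 0 genes (0%) for a change in the label difference, with 624 (4.25%) at an unadjusted p under 0.05, and DESeq2 called 1, the predicted gene Gm10800. With the replicate block for label and number Gm10800 was called as well. The BMP4 difference was 0.26 for Id2, 1.13 for Id3, 0.93 for Smad6 and 1.01 for Id1, against 0.39, 1.32, 0.73 and 0.77 under TGF-β1. None of these genes was called under BMP4 (edgeR adjusted p = 0.315, 0.445, 0.55 and 0.674), and under TGF-β1 only Id2 was. Zfp658 and Tns1, called lower under TGF-β1, differed by 0.00 and -0.04 in untreated cells, and their interactions of -0.87 and -0.48 had an edgeR adjusted p of 1.

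The number of called genes depended on single libraries. Without 1 of the 6 libraries edgeR called between 0 and 16 genes. It called 0 without the first knockout-labelled library, 9 without the second and 8 without the third. It called 0 without the first floxed-labelled library, 1 without the second and 16 without the third. Gsta3 passed the threshold in 14 of 19 alternative analyses and in 4 of the 6 that left out a library, and Ighm in 13 and 2. Id2 passed in 9 of 19 and in none that left out a library, where its adjusted p ran from 0.0516 to 0.107. The sign of the log2 difference was the same in all 19 analyses for each of these 3 genes. Without all 3 floxed-labelled libraries numbered 1, edgeR called 2 genes, Lyz2 and Dglucy, a D-glutamate cyclase (log2 0.40, adjusted p = 0.025), neither of them among the 57.

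**Figure D5:**
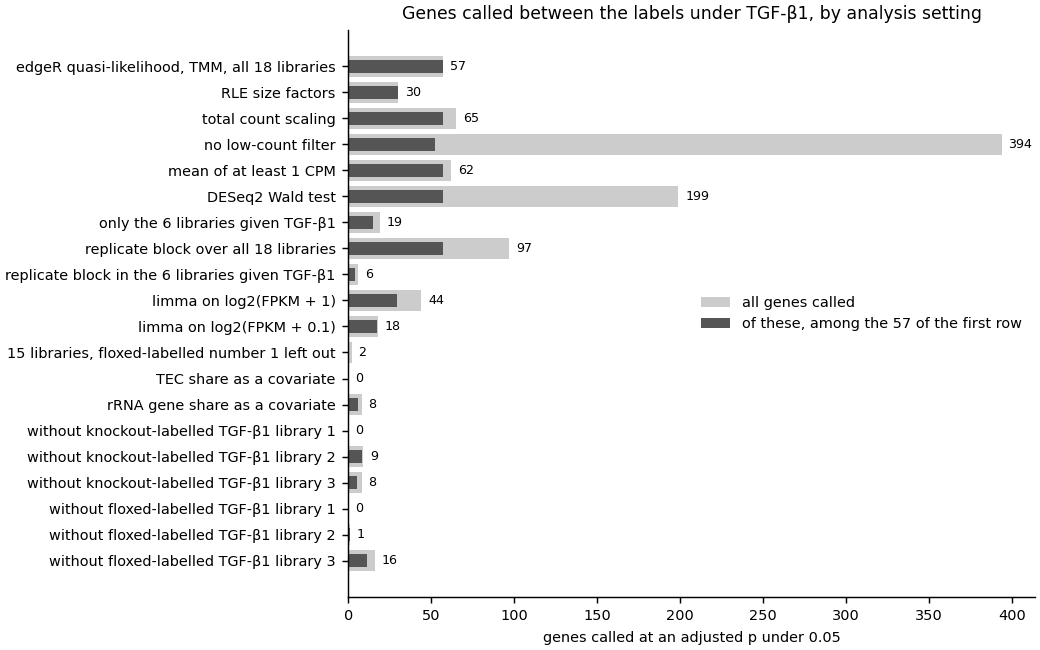
Number of genes called between the labels under TGF-β1 at an adjusted p under 0.05 (x axis) in each analysis setting (y axis), with light bars for all genes called and dark bars for those shared with the 57 of the first row. Counts run from 0 to 394, and 0 genes are called with the TEC share as a covariate or without library 1 of either label.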

How the data were processed

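Gene expression was measured by RNA sequencing of polyadenylated RNA with paired reads of 150 bp, per the labels' protocols. The submitters' processing notes name TopHat2 2.0.9, HTSeq 0.6.1, Cufflinks 2.1.1 and the build mm10 (GRCm38.p6), without saying what each did; the strand setting is not given in the sources used here. The deposited counts give whole reads for each gene, per the file headers, and entered the fits as they stand. The deposited FPKM values are the authors' scaling per length and depth and served in alternatives. Log2 fold changes and p-values of the authors' deposited table were used only beside calls. A further 78 columns of per-sample values were not used. Coordinates are those of the deposited table.

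The fits used edgeR 4.0.16 under R 4.3.3. All 18 libraries entered 1 fit with 1 mean per group (TMM factors 0.978 to 1.02, filterByExpr, 14684 of 54532 genes kept, 12 residual degrees of freedom, biological coefficient of variation 8.86%). The two-sided quasi-likelihood F test was adjusted by Benjamini-Hochberg over all genes tested, and genes were called at an adjusted p under 0.05. Total counts ran from 15153296 to 24639163, so a floor of 3 counts was 0.122 to 0.198 CPM; floors cover counting error only. No library repeated another of its group, the chi-square of their counts being 4.45 to 16.28 per degree of freedom. The script was tested on simulated data.

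Named genes were the 12 largest rises and falls among called genes at 1 CPM or more without a predicted-gene name, up to 4 called members per list (or the 2 most abundant), genes called in an interaction, and the Smad, Id, Pmepa1 and lysozyme genes; not every gene of the rule is reported, and the others were chosen after values were seen. Members and lists were chosen with earlier results of these data known.

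Library numbers were checked as pairs. Same-numbered libraries of 1 label deviated together between treatments (r 0.19 to 0.53 in 18 pairs), while those of the TGF-β1 groups did not (r -0.12 to -0.02 in 3 pairs), so numbers pair treatments within a label and do not pair the labels. Alternatives were RLE size factors, total count scaling, no low-count filter, a mean of at least 1 CPM, DESeq2 1.42.0, the 6 libraries alone, replicate blocks, limma 3.58.1 on log2(FPKM + 1) or log2(FPKM + 0.1), 15 libraries and each library left out. The covariates and the block within each label were added after seeing the data. Promoters came from the RefSeq table.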

Additional observations from a re-analysis of the deposited data

Results flagged for a closer look

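Id2 stood out because edgeR called a change in its difference between the labels from no treatment to TGF-β1 (adjusted p = 0.0432). The call was lost on leaving out any 1 of the libraries given TGF-β1 (0.0518 to 0.225) and without the 3 floxed-labelled libraries numbered 1 (adjusted p = 1), and the difference in untreated cells was itself not called (adjusted p = 0.0648). The log2 difference between the labels under TGF-β1 minus that in untreated cells was 0.65. Under TGF-β1 all 3 knockout-labelled libraries were above all 3 floxed-labelled libraries, and in untreated cells the mean was 17.4 CPM in knockout-labelled and 20.9 CPM in floxed-labelled libraries.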

How the results depend on the processing

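Against 57 genes called (20 higher, 37 lower), the count was 30 with RLE size factors (16 lower), 394 with no low-count filter (144 higher, 250 lower), 199 with DESeq2 (90 and 109), 19 in the 6 libraries alone (7 and 12), 18 with limma on log2(FPKM + 0.1) (6 and 12), 2 in 15 libraries (2 higher, 0 lower), 0 with the TEC share (0 and 0) and 8 with the ribosomal RNA gene share (0 higher, 8 lower). It was within 1.5 times of 57 with total count scaling, a mean of at least 1 CPM and limma on log2(FPKM + 1). Leaving out 1 library gave 0 to 16 genes (0 to 6 higher, 0 to 11 lower). Fewer libraries also leave fewer degrees of freedom; otherwise the cause was not tested.

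With a replicate block over all 18 libraries 97 genes were called (36 higher, 61 lower), and in the 6 libraries alone with the block 6 were (4 and 2), although the numbers do not pair the labels. The change in label difference between TGF-β1 and no treatment, 1 gene (1 higher, 0 lower), was 0 with that block, and 1 with the block within each label.

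That change was also 0 with total count scaling, both limma fits, 15 libraries and either covariate, 8 with no filter (5 higher, 3 lower), and 0 to 1 without 1 library. Between TGF-β1 and BMP4 the count of 0 became 38 with no filter (24 and 14), 1 (higher) with DESeq2, limma on log2(FPKM + 0.1), 15 libraries and the block within each label, and 0 to 1 without 1 library.

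Of the genes recomputed under each alternative, Smad2, Smad3 and Pmepa1, all near 0, changed sign. Smad2 went to -0.01 without the third knockout-labelled or the second floxed-labelled library. Smad3 ran from -0.12 to 0.16 without 1 library (0.16 and 0.01 without either second library), and was 0.05 with the TEC share and 0.02 with the ribosomal RNA share, and Pmepa1 to 0.04 with the TEC share. With 3 libraries per label, an exact permutation test of 1 gene cannot go below p = 0.1, and low genes such as Id1 are limited by depth.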

Other observations

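Some genes marked single libraries more than labels, and they were chosen after their values were seen. Rpl29, a ribosomal protein gene, had 235, 68.4 and 369 CPM in the knockout-labelled libraries given TGF-β1 and 65.2, 249 and 240 CPM in the floxed-labelled ones. Gvin1, an interferon-inducible GTPase gene, was at 0.0556 CPM in the first floxed-labelled library and at 10.7 and 9.79 CPM in the other two. The collagen genes Col1a1 and Col1a2, which mark fibroblasts, had 4.52 and 3.07 CPM in the second floxed-labelled library and at most 0.467 and 0.418 CPM in the other 5 libraries.

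Hp, which encodes haptoglobin and is on the list of monocyte markers, had 5.94, 6.91 and 8.95 CPM against 10.1, 12.7 and 13.7 CPM. The labels did not overlap (log2 -0.74, edgeR adjusted p = 0.125), as was so on the lower side for 10% of all genes tested.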
